A study of Homo sapiens with 6 samples.

Results

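The genes described here are 9 direct targets of the transcription factor p53, measured by RNA sequencing after an adenovirus carrying a short hairpin RNA (shRNA) against GOLPH3. They are 9 of the 34866 gene identifiers (IDs) in the deposited table, picked by ID: Cdkn1a, Mdm2, Bax, Bbc3, Ccng1, Gdf15, Zmat3, Fas and Btg2. Of these, 7 held counts and were tested, and 2 (Gdf15 and Fas) were listed at 0 in every library. Per the labels, 3 samples of MKN45 were given the Golph3 shRNA virus and 3 samples of MKN45 a virus with a control shRNA. All 6 samples thus received adenovirus, and no uninfected sample is among them. The labels state neither the hairpin sequences, nor the virus dose, nor the time after infection. The Golph3 shRNA samples are titled sh1, sh2 and sh3, which were taken here as replicate numbers. These titles alone do not tell replicates of the same hairpin from different hairpins. MKN45 is a single established line from a human gastric adenocarcinoma, grown in RPMI1640 with serum. GOLPH3 is a Golgi membrane protein that helps to retain glycosyltransferases.

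p53 is held low in unstressed cells because MDM2, itself a p53 target, marks it for degradation. DNA damage and other stresses release it, and it then binds DNA as a tetramer and raises the transcription of genes for cell cycle arrest, for apoptosis and for its own restraint. Much of this control acts on the stability of the p53 protein, which RNA sequencing does not measure. Most of these target genes also respond to other transcription factors, so the RNA of 1 target is no direct reading of p53.

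The libraries held 4977645 to 5676169 estimated counts with GOLPH3 shRNA and 6287037 to 7355140 with control shRNA. Values are given as CPM, which are counts per 1000000 of a library total adjusted with trimmed mean (TMM) factors. The row names are mouse Ensembl IDs and the submitters' processing notes name the mouse build mm10, while the labels give human cells. A level is therefore a count assigned to a mouse gene model, and whether the reads are human or mouse was not tested. The table pairs no ID with a name and no mouse annotation was used here. The symbols of the IDs come from the definition of the list, while GOLPH3 itself, cell type markers and other p53 pathway genes were not analysed here. The labels do not say whether same-group samples are separate cultures, so a p-value covers the spread among the 6 samples and that spread may be a technical one.

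Human start regions of 4 genes are shown: CDKN1A, because it rose most, BTG2 and CCNG1, because they fell, and MDM2. MDM2 is included because the window shown holds a match to the p53 site, although the Mdm2 change was the smallest called. The regions are RefSeq windows of 300 bases, printed 5′ to 3′ on the plus strand. Each spans 250 bases before a transcription start and 50 after it (build GRCh38.p14). Capitals mark a match to the p53 consensus full site, which is 2 copies of the 10-base p53 half-site with no base between them. Up to 3 mismatches were allowed, with the 4 invariant C and G bases kept. The site reads the same on both strands. The human genes stand in for the mouse IDs by shared symbol, and each of the 9 targets had at least 1 window in the table.
CDKN1A, chr6:36678464-36678763: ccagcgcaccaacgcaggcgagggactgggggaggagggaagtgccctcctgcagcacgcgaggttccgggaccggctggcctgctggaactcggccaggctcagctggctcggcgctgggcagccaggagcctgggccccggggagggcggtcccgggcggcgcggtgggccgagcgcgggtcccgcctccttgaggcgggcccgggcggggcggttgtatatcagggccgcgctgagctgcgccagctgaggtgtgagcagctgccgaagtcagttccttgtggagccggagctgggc
BTG2, chr1:203305269-203305568: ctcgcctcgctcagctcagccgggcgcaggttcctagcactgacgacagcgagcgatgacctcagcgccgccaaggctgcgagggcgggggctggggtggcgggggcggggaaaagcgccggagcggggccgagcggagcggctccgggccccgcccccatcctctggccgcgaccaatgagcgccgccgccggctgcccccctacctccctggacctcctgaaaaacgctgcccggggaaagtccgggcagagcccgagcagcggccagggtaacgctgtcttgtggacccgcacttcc
CCNG1, chr5:163437321-163437620: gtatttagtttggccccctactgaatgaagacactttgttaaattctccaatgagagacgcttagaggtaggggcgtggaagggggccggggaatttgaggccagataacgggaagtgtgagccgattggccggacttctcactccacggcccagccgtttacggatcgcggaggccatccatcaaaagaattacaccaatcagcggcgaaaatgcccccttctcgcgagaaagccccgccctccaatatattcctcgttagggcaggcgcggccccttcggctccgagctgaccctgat
MDM2, chr12:68808767-68809066: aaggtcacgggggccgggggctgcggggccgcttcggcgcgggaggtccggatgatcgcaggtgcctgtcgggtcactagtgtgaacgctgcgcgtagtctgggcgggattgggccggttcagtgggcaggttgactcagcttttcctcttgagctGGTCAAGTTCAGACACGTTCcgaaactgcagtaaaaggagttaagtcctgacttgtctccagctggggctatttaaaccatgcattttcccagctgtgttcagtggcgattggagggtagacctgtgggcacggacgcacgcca

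The MDM2 window holds the match at positions 157 to 176 from its 5′ end (chr12:68808923-68808942), with 2 mismatches. The internal P2 promoter of MDM2 is the textbook p53-responsive start of that gene. FAS and GDF15, whose IDs were listed at 0, each also had a window with a match, printed next.
FAS, chr10:88991309-88991328, plus strand, 2 mismatches: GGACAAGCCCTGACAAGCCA
GDF15, chr19:18386186-18386205, plus strand, 3 mismatches: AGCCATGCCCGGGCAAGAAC

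Matches of this kind were found in 4 of the 16 windows of the members, and in 1.12% of all 35116 windows. The matching windows of MDM2 overlap and hold the same site. The other MDM2 windows, at an upstream start, held no match. By gene, 3 of the 9 targets had a match, as did 1.37% of all 27305 symbols. The 9 genes were listed because they are p53 targets, so this contrast is no independent test. It was also not adjusted for the number of windows per gene. CDKN1A, BTG2, CCNG1, BAX, BBC3 and ZMAT3 had no match in their windows. For no gene were sites searched for outside the windows, with bases between the half-sites, or lacking 1 of the invariant C and G bases. A window, or a stretch in lower case, can therefore hold a p53 site that was not counted here. The best known p53 sites of CDKN1A lie farther upstream than this window reaches. A match describes letters only and says nothing of binding in these samples.

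Of the 7 tested members, 4 rose with GOLPH3 shRNA (Cdkn1a, Bax, Bbc3 and Mdm2), 2 fell (Ccng1 and Btg2) and 1 (Zmat3) was not called. A call is a p below 0.05 after Benjamini-Hochberg adjustment over all 11400 tested IDs, from the quasi-likelihood test of edgeR. Among all tested IDs, 33.9% were called, 16.1% higher and 17.8% lower. Among the 5292 IDs with a mean level in the members' range, 18.0 to 169 CPM, 43.6% were called, 20.2% higher and 23.5% lower. The count of 6 of 7 is thus to be read against a background in which calls were common. The members' median log2 fold change was 0.33, against 0.0019 over all tested IDs. Their median absolute log2 fold change was 0.54, against 0.31. The groups did not overlap for 6 of the 7, against 46.3% of all tested IDs (22.1% higher and 24.2% lower). The members were chosen with earlier results of these data known, so these contrasts with all tested IDs only describe the list. In bulk RNA, a change in the share of cells that express a gene and a change in RNA per cell cannot be told apart.

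**Figure D1:**
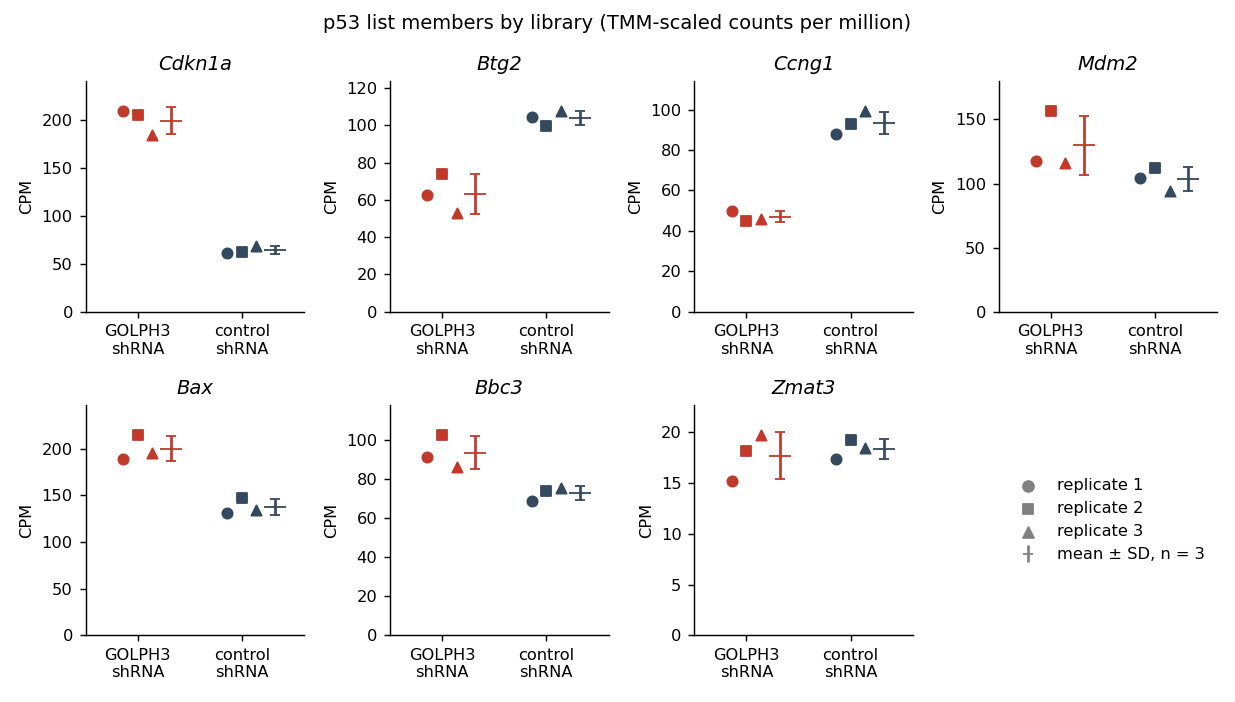
Level of each tested p53 list member by library, in TMM-scaled CPM (linear axis from 0); points are libraries, with GOLPH3 shRNA at the left and control shRNA at the right of each panel, and bars are mean ± SD (n = 3). Cdkn1a lies between 184 and 209 CPM with GOLPH3 shRNA and between 61.3 and 68.9 with control shRNA, Ccng1 and Btg2 lie lower with GOLPH3 shRNA, and Zmat3 overlaps.

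The arrest genes moved in opposite directions. Cdkn1a (ENSMUSG00000023067.13), which encodes the cyclin-dependent kinase inhibitor p21, the main effector of p53-dependent G1 arrest, was the strongest change of the list. It had 209, 205 and 184 CPM in GOLPH3 shRNA replicates 1, 2 and 3, against 61.3, 61.9 and 68.9 CPM in control shRNA replicates 1, 2 and 3. Every GOLPH3 shRNA library was thus far above every control library. The underlying counts were 1016 to 1145 with GOLPH3 shRNA and 394 to 454 with control shRNA, so the raw counts rose although the GOLPH3 shRNA libraries were smaller. The group means were 199 ± 13.7 CPM with GOLPH3 shRNA and 64.0 ± 4.19 CPM with control shRNA (SD, n = 3 each). Cdkn1a rose 3.11-fold, or by 1.64 ± 0.084 on the log2 scale (± SE, edgeR adjusted p = 2.38e-09). Only 0.605% of tested IDs had a higher fold change, and by p-value it stood at place 7 of 11400.

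Btg2 (ENSMUSG00000020423.6), an antiproliferative gene of the BTG/TOB family whose protein recruits the CCR4-NOT deadenylase to messenger RNA, fell. It had 62.4, 74.0 and 52.95 CPM in GOLPH3 shRNA replicates 1, 2 and 3, against 104, 99.8 and 108 CPM in control shRNA replicates 1, 2 and 3. The highest GOLPH3 shRNA value was below the lowest control value. Means were 63.1 ± 10.5 CPM with GOLPH3 shRNA and 104 ± 3.92 CPM with control shRNA (SD, n = 3 each). Btg2 fell 1.65-fold, or -0.72 ± 0.11 on the log2 scale (± SE, edgeR adjusted p = 9.38e-05). Btg2 is also an immediate early gene that growth factors induce. Its spread was wider with GOLPH3 shRNA, with a coefficient of variation of 16.7% against 3.77% with control shRNA.

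The feedback genes also parted. Ccng1 (ENSMUSG00000020326.7) encodes cyclin G1, which recruits phosphatase 2A to activate MDM2, and it was the largest decrease of the list. It had 50.1, 45.1 and 45.9 CPM in GOLPH3 shRNA replicates 1, 2 and 3, against 88.1, 92.7 and 99.3 CPM in control shRNA replicates 1, 2 and 3. The groups lay far apart, and the counts were 247 to 254 with GOLPH3 shRNA and 566 to 680 with control shRNA. Ccng1 averaged 47.0 ± 2.67 CPM with GOLPH3 shRNA and 93.4 ± 5.61 CPM with control shRNA (SD, n = 3 each). It fell 1.99-fold, or -0.99 ± 0.095 on the log2 scale (± SE, edgeR adjusted p = 1.66e-06), and 3.54% of tested IDs had a lower fold change.

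Mdm2 (ENSMUSG00000020184.15), the ubiquitin ligase that targets p53, had the smallest called change. It had 117, 157 and 116 CPM in GOLPH3 shRNA replicates 1, 2 and 3, against 104, 113 and 94.1 CPM in control shRNA replicates 1, 2 and 3. The groups did not overlap, but the lowest GOLPH3 shRNA value, 116 CPM, was close to the highest control value, 113 CPM. Mdm2 rose 1.25-fold, or by 0.33 ± 0.11 on the log2 scale (± SE, edgeR adjusted p = 0.030). The high value of GOLPH3 shRNA replicate 2 carried much of this. Without that library the log2 fold change was 0.17 (edgeR adjusted p = 0.21). The call was also lost without control replicate 1 (0.33, edgeR adjusted p = 0.070) and without control replicate 3 (0.26, edgeR adjusted p = 0.13). The Mdm2 estimate had a fractional part in 3 of the 6 libraries, which a count of whole reads would not have.

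The apoptosis genes with counts rose modestly. Bax (ENSMUSG00000003873.11), which permeabilises the outer mitochondrial membrane, had 189, 215 and 196 CPM in GOLPH3 shRNA replicates 1, 2 and 3, against 131, 147 and 134 CPM in control shRNA replicates 1, 2 and 3. The groups were clearly separate. Bax averaged 199.9 ± 13.5 CPM with GOLPH3 shRNA and 138 ± 8.58 CPM with control shRNA (SD, n = 3 each). It rose 1.45-fold, or by 0.54 ± 0.078 on the log2 scale (± SE, edgeR adjusted p = 6.5e-05).

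Bbc3 (ENSMUSG00000002083.13) encodes PUMA, a BH3-only protein that frees BAX and BAK from their inhibitors. It had 91.2, 102 and 86.2 CPM in GOLPH3 shRNA replicates 1, 2 and 3, against 68.8, 73.9 and 75.3 CPM in control shRNA replicates 1, 2 and 3. All GOLPH3 shRNA values lay above the control values. Bbc3 averaged 93.3 ± 8.29 CPM with GOLPH3 shRNA and 72.7 ± 3.43 CPM with control shRNA (SD, n = 3 each). It rose 1.28-fold, or by 0.36 ± 0.092 on the log2 scale (± SE, edgeR adjusted p = 0.0066). Changes of this size were common, with 20.9% of tested IDs having a higher fold change than Bbc3.

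Zmat3 (ENSMUSG00000027663.12), a zinc finger RNA-binding protein that regulates splicing downstream of p53, did not pass the test. It had 15.2, 18.1 and 19.7 CPM in GOLPH3 shRNA replicates 1, 2 and 3, against 17.3, 19.2 and 18.4 CPM in control shRNA replicates 1, 2 and 3. The groups overlapped. The log2 fold change was -0.051, with a 95% interval of -0.40 to 0.29 (edgeR adjusted p = 0.84). Zmat3 had the fewest counts of the tested members, 74.6 to 109 with GOLPH3 shRNA and 111 to 141 with control shRNA, and its estimates were fractional in all 6 libraries.

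Gdf15 (ENSMUSG00000038508.7), a secreted stress cytokine, and Fas (ENSMUSG00000024778.12), a death receptor, were listed at 0 in all 6 libraries. In single libraries a count of 0 allows up to 3 counts, which is 0.537 to 0.608 CPM with GOLPH3 shRNA and 0.409 to 0.473 CPM with control shRNA, for counting error only. Of all IDs in the table, 48.0% were listed at 0 in every library. The levels of Gdf15 and Fas, and any difference in them between the groups, therefore could not be read. Whether these zeros come from the cells or from how reads were assigned to gene models was not tested.

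**Figure D2:**
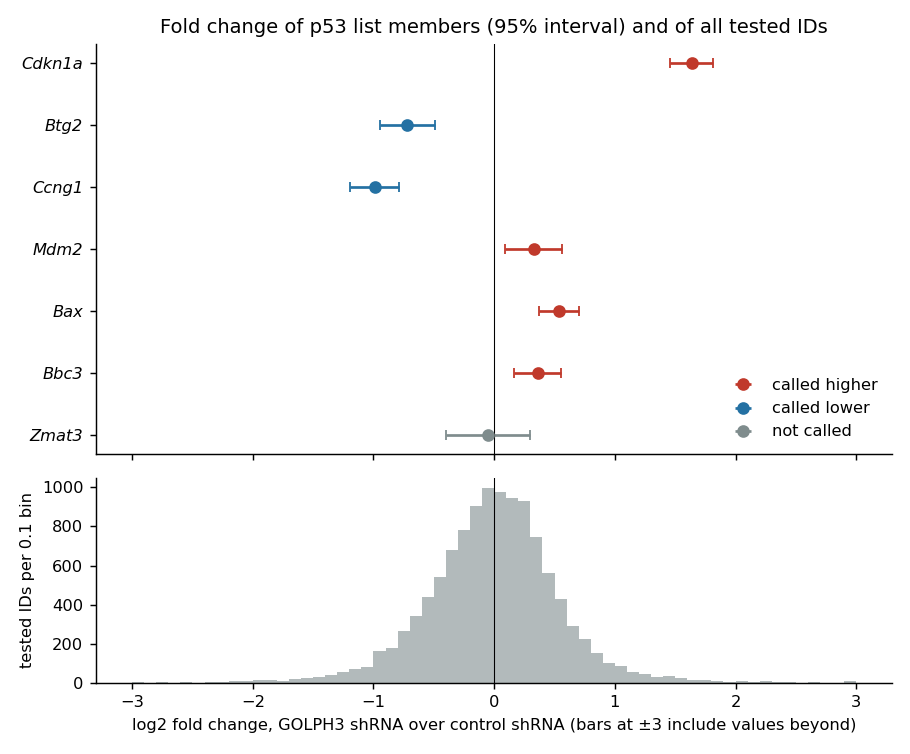
Upper panel: log2 fold change of each tested member, GOLPH3 shRNA over control shRNA, with its 95% interval from the edgeR fit (n = 3 each); lower panel: the same quantity for all 11400 tested IDs. Cdkn1a at 1.64 and Ccng1 at -0.99 lie in opposite tails, and Mdm2, Bax and Bbc3 lie between 0.33 and 0.54.

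Ratios of 2 members inside a library do not depend on library size or scaling factor, and they show how unequally the targets changed. Ratios were formed for 6 pairs, chosen after the values had been seen, and adjustment over these 6 pairs does not cover that choice. The ratios were compared by exact two-sided permutation of the 3 against 3 libraries, which cannot go below p = 0.1. The Cdkn1a to Ccng1 count ratio was 4.17, 4.54 and 4.0 in GOLPH3 shRNA replicates 1, 2 and 3, against 0.696, 0.668 and 0.694 in control shRNA replicates 1, 2 and 3. Cdkn1a thus had more counts than Ccng1 in each GOLPH3 shRNA library and fewer in each control library. The mean log2 ratio differed by 2.63 (exact permutation p = 0.1, adjusted over the 6 pairs 0.2), which is 6.17-fold. Count ratios between genes also carry their unequal lengths, which cancel in the difference between groups. How fully the reads of each gene were assigned to its mouse model was not tested. A ratio within 1 group is therefore no measure of relative RNA abundance.

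For Cdkn1a to Btg2 the log2 ratio was 1.67 ± 0.17 with GOLPH3 shRNA and -0.70 ± 0.063 with control shRNA (SD, n = 3 each, exact permutation p = 0.1, adjusted 0.2). For Cdkn1a to Bax it was -0.0052 ± 0.13 with GOLPH3 shRNA and -1.10 ± 0.14 with control shRNA (exact permutation p = 0.1, adjusted 0.2, n = 3 each). Cdkn1a therefore rose by more than Bax in every comparison of a GOLPH3 shRNA library with a control library. The log2 ratio of Btg2 to Ccng1 was 0.41 ± 0.27 with GOLPH3 shRNA and 0.16 ± 0.078 with control shRNA, and the groups overlapped (exact permutation p = 0.2, adjusted 0.24, n = 3 each). The log2 ratio of Bax to Mdm2 was 0.64 ± 0.16 with GOLPH3 shRNA and 0.41 ± 0.092 with control shRNA, with overlap (exact permutation p = 0.2, adjusted 0.24, n = 3 each). That of Bbc3 to Mdm2 was -0.47 ± 0.13 with GOLPH3 shRNA and -0.51 ± 0.16 with control shRNA (exact permutation p = 1, adjusted 1, n = 3 each).

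**Figure D3:**
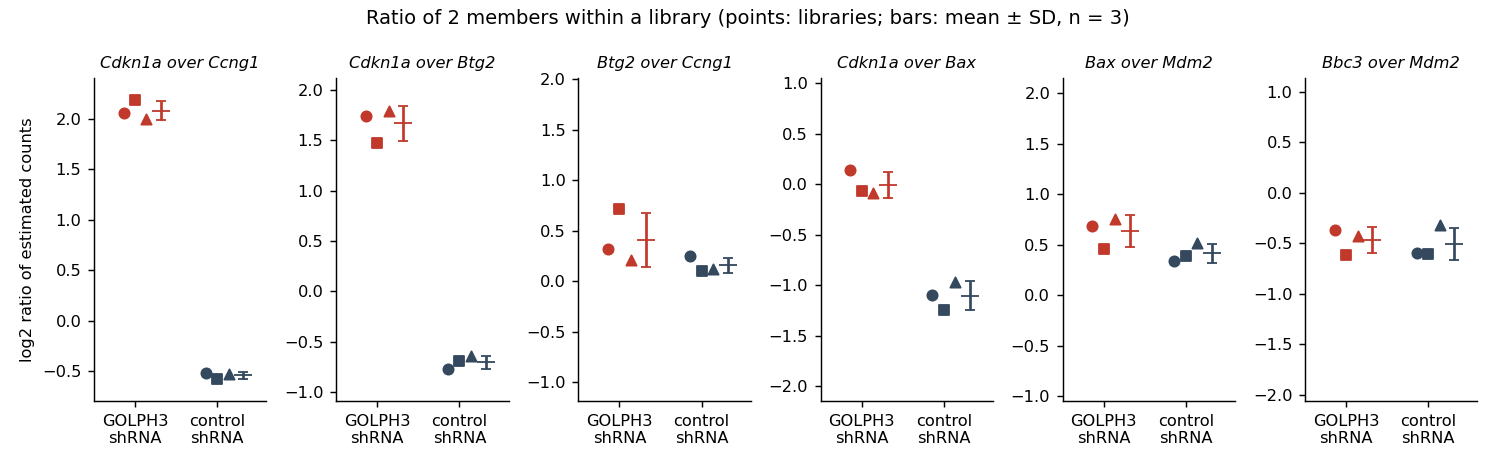
Log2 ratio of the estimated counts of 2 members within each library, for 6 pairs; circles, squares and triangles are replicates 1, 2 and 3, GOLPH3 shRNA at the left and control shRNA at the right of each panel, and bars are mean ± SD (n = 3). All panels span the same range of log2 units. Cdkn1a over Ccng1 and Cdkn1a over Btg2 change sign between the groups, while the ratios of Bax and Bbc3 to Mdm2 overlap.

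The libraries also varied within a group. GOLPH3 shRNA replicate 2 had the highest value of its group for Mdm2 (157 CPM), Bax (215 CPM), Bbc3 (102 CPM) and Btg2 (74.0 CPM) and the lowest for Ccng1 (45.1 CPM). Leaving it out moved Btg2 to a log2 fold change of -0.85 and Cdkn1a to 1.61, and both were still called. Bax moved to 0.48 and Bbc3 to 0.28, with Bbc3 close to the threshold (edgeR adjusted p = 0.039). Apart from that of Mdm2, no call was decided by 1 library. Cdkn1a, Bax, Bbc3, Ccng1 and Btg2 were called in the same direction whichever of the 6 libraries was left out.

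**Figure D4:**
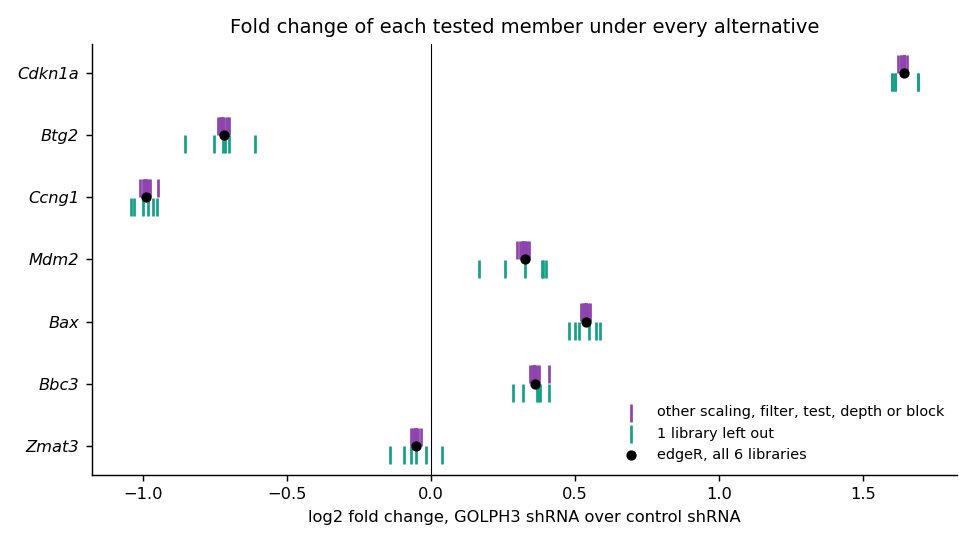
Log2 fold change of each tested member, GOLPH3 shRNA over control shRNA, in the edgeR fit of all 6 libraries (black), under 10 other scalings, filters, tests, depths or the replicate block (purple) and with each library left out (green). Cdkn1a stays between 1.6 and 1.69 and Ccng1 between -1.04 and -0.95, while Mdm2 ranges from 0.17 to 0.40 and Zmat3 crosses 0.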

How the data were processed

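Estimated counts per gene ID stand in 1 deposited table, made against mouse build mm10 per the submitters' processing notes, from stranded mRNA libraries per the labels' protocols. The labels name no aligner, quantifier, annotation release or strand setting. Estimated counts were rounded, 11400 of 34866 IDs passed edgeR's filterByExpr (99.7% to 99.8% of each library's counts), and edgeR 4.0.16 (R 4.3.3) tested GOLPH3 shRNA against control shRNA (TMM factors, quasi-likelihood F test, Benjamini-Hochberg adjustment over all tested IDs, threshold 0.05). The SE was derived as the ratio of the log2 fold change to the square root of F. The fit was tested on simulated data. Alternatives were DESeq2 1.42.0, limma-voom (limma 3.58.1), other scalings and filters, unrounded counts, thinning, a replicate block and each library left out. The members and lists were chosen with earlier results of these data known. Of the 10 members 9 are named and 1 is not reported here; the planned lists of other p53 pathway genes and cell type markers were not used, since no mouse symbols were at hand. Library depth, 4977645 to 7355140 estimated counts, limits the precision most for Zmat3. Promoter windows are from RefSeq, GRCh38.p14.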

Additional observations from a re-analysis of the deposited data

How the results depend on the processing

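Under 10 other scalings, filters, tests, depths and the replicate block, the same 4 members were called higher and the same 2 lower as in edgeR with TMM scaling. Log2 fold changes ranged from 1.62 to 1.65 for Cdkn1a, 0.52 to 0.55 for Bax, 0.34 to 0.41 for Bbc3, 0.30 to 0.34 for Mdm2 (adjusted p from 0.0043 to 0.048), -1.01 to -0.95 for Ccng1 and -0.74 to -0.70 for Btg2. No scaling moved the median of all tested IDs by more than 0.1. With the replicate block Mdm2 was at 0.32 (edgeR adjusted p = 0.0098), and 1842 IDs were called higher and 2045 lower. Libraries with equal replicate numbers deviated from their group means with correlations of 0.032, 0.090 and 0.044. Those with unequal numbers had correlations from -0.086 to 0.037. All these values were small, and the numbers were not taken as pairs. With 1 library left out at a time, 3 to 4 members were called higher and 2 lower, as were 1425 to 1665 and 1644 to 1929 of all IDs. Mdm2 then ran from 0.17 to 0.40 and lost its call in 3 of the 6 fits, as given above. Zmat3, not called in any of these 16 fits, ran from -0.14 to 0.039 and was above 0 only without GOLPH3 shRNA replicate 1 (edgeR adjusted p = 0.89); the cause was not tested.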
